A study of Mus musculus with 22 samples.

Results

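The genes described are 10 stress response regulators of the mouse: Atf4, Atf3, Ddit3, Cebpb, Atf5, Trib3, Ddit4, Sesn2, Chac1 and Asns. They were taken by symbol as a set of genes of the ATF4-type, or integrated, stress response, out of 52535 symbols in each count table. The choice was made with earlier results of these data known. Their counts beside those of all genes are thus a description and not independent support. All 10 passed the filter on low counts, which 16765 genes passed in all. The RNA came from E14, a mouse embryonic stem cell line, kept on gelatin with LIF and inhibitors of MEK and GSK, then moved for 1 day to medium without these and with 2 µM retinoic acid, the vitamin A derivative that starts differentiation and switches on Hox genes. The series asks what a pair of enhancers, E1 and E2, do for HoxB expression and early differentiation. RNA-seq libraries, 3 for each of 4 genotypes, were from cells lacking E1 (E1-KO), cells lacking E2 (E2-KO), cells labelled D-KO, which the labels do not spell out and which are read here as lacking both elements, and unedited cells (WT). All 4 genotypes carried the same line background and received retinoic acid, so no library shows the genes before treatment. The 3 libraries of a genotype are called biological replicates, without word on separate cultures or clones. The p-values below thus speak for the spread between these samples alone, which may be technical.

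The integrated stress response is the common answer of cells to amino acid shortage, misfolded proteins in the endoplasmic reticulum (ER), haem shortage and viral RNA. Several kinases phosphorylate the translation factor eIF2, which lowers protein synthesis at large and raises translation of the ATF4 messenger RNA. ATF4 protein then switches on genes for amino acid uptake and synthesis, further transcription factors and feedback inhibitors. Because ATF4 is controlled largely in translation, a transcript count of Atf4 does not give the level of ATF4 protein, which was not measured here.

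ATF4 dimers with C/EBP proteins bind an element known as the C/EBP-ATF response element, here searched as TGATGNAA on both strands. In RefSeq promoter windows of GRCm38.p6, each 300 bases long, 1304 of 32851 held it (3.97%). It stood in 4 of the 11 windows of the 10 genes, Atf5 having a pair of windows. The 30 bases around each match follow for these 4 genes. Capitals mark the 8 letters of the element, and each run is written on the strand that carries it.
Atf3, chr1:191183425-191183454, opposite strand to the gene: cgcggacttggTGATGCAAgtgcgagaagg
Trib3, chr2:152344028-152344057, opposite strand to the gene: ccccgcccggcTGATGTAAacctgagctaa
Chac1, chr2:119351038-119351067, opposite strand to the gene: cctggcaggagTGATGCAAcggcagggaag
Asns, chr6:7693214-7693243, same strand as the gene: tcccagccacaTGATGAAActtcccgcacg
Counted from the RefSeq start that each window was built on, which is not the end of the gene positions given below, the element's upstream end lay at -110 in Atf3, -193 in Chac1, -23 in Asns and +15 in Trib3. The cyclic AMP response element TGACGTCA (1.79% of windows) and the ER stress element (CCAAT and CCACG with 9 bases between, 0.119%) were in none of the 11 windows. A match is a description of letters and not a measured binding site, and a missing match concerns these windows only.

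Between 9101547 and 13007735 reads per library were assigned to genes. Levels are given as CPM, read counts scaled to library size with TMM factors. All 8 embryonic stem cell markers were detected in every library, and their summed CPM was 5965-6303 (E1-KO), 5676-6119 (E2-KO), 4735-4959 (D-KO) and 2421-4647 (WT). Of 10 fibroblast markers 3 to 7 were above 0, at a summed 6.45 to 13.2 CPM, and Lum was at 0 throughout. Primitive endoderm markers had a summed CPM of 72.1-78.8 (E1-KO), 126.7-133.6 (E2-KO), 156-165.5 (D-KO) and 274-365 (WT). Of these 10 markers Amn alone went the other way, with means of 5.06, 8.62 and 6.28 CPM in E1-KO, E2-KO and D-KO and 1.895 in WT. In bulk RNA, fewer cells of a type and less RNA per cell cannot be told apart. As a check of the labels, the HoxB genes had a summed CPM of 10.6-10.8 (E1-KO), 14.9-15.9 (E2-KO), 3.22-5.25 (D-KO) and 94.2-195 (WT), while the deletions themselves are not seen in gene counts. The WT libraries stood apart from each other: the chi-square per gene between replicates was 38.4 to 75.8 in WT, against 2.18 to 3.88 within the KO genotypes. The mitochondrially encoded share of counts was 1.36-1.48% (E1-KO), 1.63-1.81% (E2-KO) and 2.53-2.69% (D-KO), and 3.50%, 1.95% and 5.88% in WT replicates 1, 2 and 3. Across genes, the Spearman correlation of relative expression with GC content ranged over 0.25-0.35 (E1-KO), 0.30-0.43 (E2-KO) and -0.10 to -0.02 (D-KO), and was -0.56, 0.14 and -0.43 in WT replicates 1, 2 and 3. Results against WT are also given with WT replicate 2 as the only WT library and with GC and length trends removed. Replicate 2 lay nearest the KO libraries in mitochondrial share and GC correlation, but which WT library is typical is not known. Library quality weights in limma, a further fit used below, were 0.4835, 0.1315 and 0.1409 for WT replicates 1, 2 and 3. In the KO libraries they were 1.259 to 1.957.

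The transcription factors come first, with gene positions on GRCm38. Atf4, the central activator of the response (chr15:80255184-80257541, + strand), had 392, 387 and 396 CPM in E1-KO, 442, 446 and 445 CPM in E2-KO, 280.3, 283 and 270.5 in D-KO, and 283, 329 and 117 in WT. Every E1-KO and E2-KO library was above every WT library, while the D-KO values lay within the wide WT range.
Atf3, a factor that ATF4 induces early in the response (chr1:191170296-191218039, - strand), had 6.24, 6.77 and 6.64 CPM in E1-KO, 10.9, 10.5 and 9.28 CPM in E2-KO, 4.03, 3.94 and 3.695 in D-KO, and 3.285, 2.81 and 1.07 in WT. The 4 genotypes did not overlap, although WT replicate 3 rested on 9 reads.
Ddit3, which encodes the pro-apoptotic factor CHOP (chr10:127290774-127296288, + strand), had 36.05, 32.6 and 34.6 CPM in E1-KO, 43.6, 41.5 and 46.8 CPM in E2-KO, 19.95, 19.6 and 21.9 in D-KO, and 19.8, 26.0 and 12.45 in WT. E2-KO was highest, E1-KO next, and D-KO and WT overlapped.
Cebpb, a C/EBP factor able to dimerise with ATF4 (chr2:167688915-167690418, + strand), had 29.1, 32.3 and 25.9 CPM in E1-KO, 39.3, 37.5 and 33.6 CPM in E2-KO, 13.7, 14.5 and 13.5 in D-KO, and 4.41, 10.06 and 1.07 in WT. The genotypes kept apart in the order E2-KO, E1-KO, D-KO, WT, with 9 reads in WT replicate 3.
Atf5, a relative of ATF4 tied to the mitochondrial stress response (chr7:44812256-44816658, - strand), had 93.95, 93.2 and 93.0 CPM in E1-KO, 102, 98.8 and 81.1 CPM in E2-KO, 55.5, 54.6 and 53.5 in D-KO, and 29.3, 64.0 and 23.6 in WT. E1-KO and E2-KO overlapped each other and lay above all D-KO and WT libraries.

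The feedback and effector genes followed the same order of genotypes with exceptions. Trib3, a pseudokinase that restrains ATF4 (chr2:152337422-152344032, - strand), had 75.1, 76.7 and 79.2 CPM in E1-KO, 104, 97.7 and 96.3 CPM in E2-KO, 34.45, 40.2 and 36.0 in D-KO, and 28.0, 39.5 and 20.99 in WT. WT replicate 2 lay within the D-KO range and the other WT libraries below it.
Ddit4, an inhibitor of the growth kinase complex mTORC1 (chr10:59949669-59951834, - strand), had 78.9, 68.5 and 69.7 CPM in E1-KO, 103, 98.7 and 81.9 CPM in E2-KO, 43.2, 42.5 and 40.5 in D-KO, and 14.0, 41.4 and 9.96 in WT. WT replicate 2 again fell inside the D-KO range, well above the other WT libraries.
Sesn2, a leucine sensor that also restrains mTORC1 (chr4:132492032-132510501, - strand), had 222, 232 and 239 CPM in E1-KO, 239.8, 252.5 and 243 CPM in E2-KO, 192.5, 185 and 182 in D-KO, and 104, 158 and 127.5 in WT. All 9 KO libraries were above all WT libraries.
Chac1, which degrades glutathione (chr2:119351229-119354381, + strand), had 31.98, 25.15 and 30.4 CPM in E1-KO, 45.05, 46.1 and 42.5 CPM in E2-KO, 15.9, 17.1 and 15.2 in D-KO, and 12.8, 21.2 and 9.25 in WT. WT replicate 2 was above all D-KO libraries and the other WT libraries were below them.
Asns, which makes asparagine (chr6:7675169-7693254, - strand), had 617, 615 and 624 CPM in E1-KO, 614, 595 and 602 CPM in E2-KO, 371, 353 and 357 in D-KO, and 380.1, 373 and 529 in WT. Here D-KO was the lowest genotype, below every WT library, and the highest WT library was replicate 3, which was the lowest for 8 of the other genes.

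**Figure D1:**
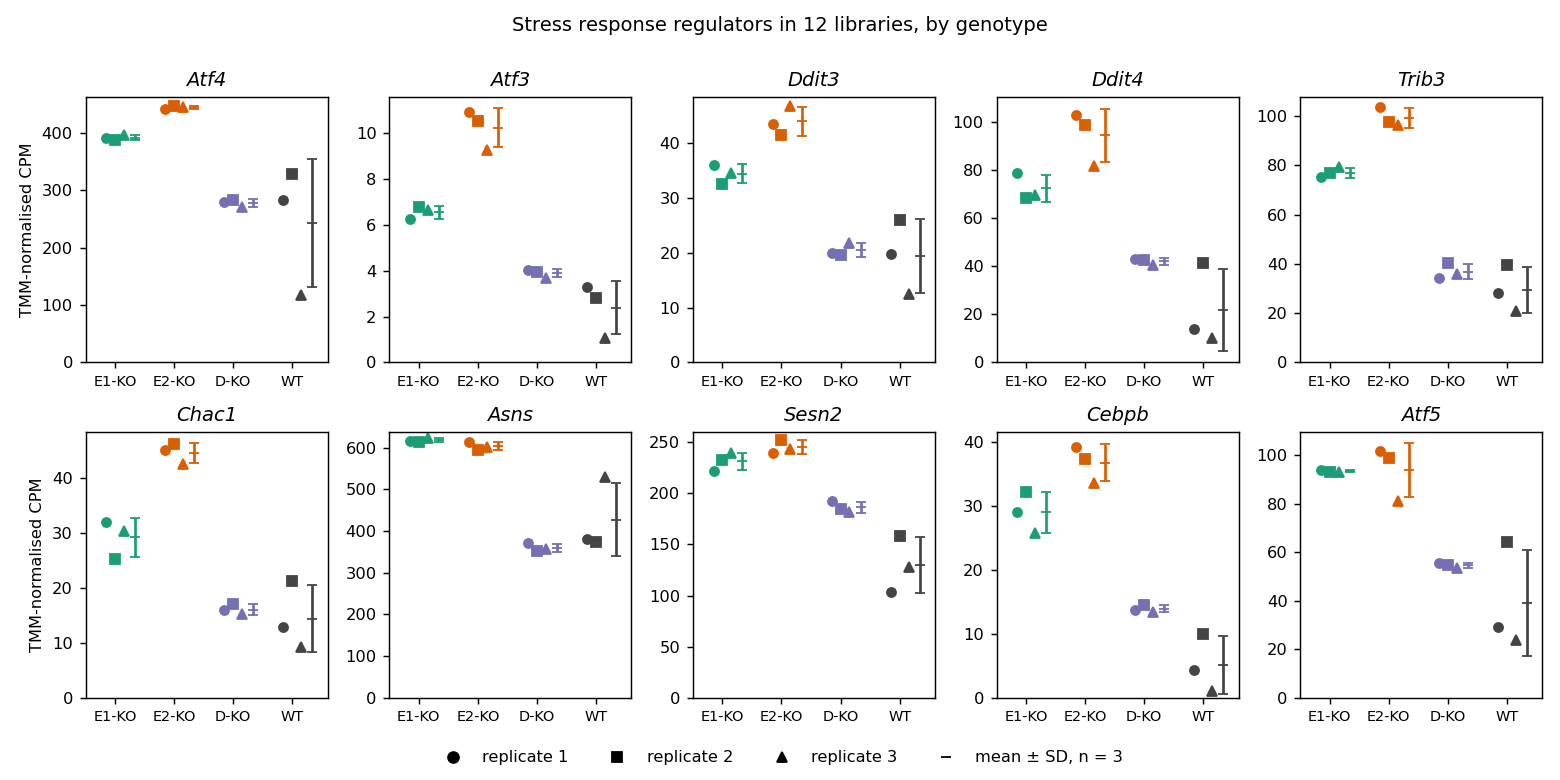
Level of each of the 10 genes (TMM-normalised CPM, linear axis from 0) in the 12 libraries, by genotype, with each library as a point whose shape gives its replicate number and the mean ± SD beside it (n = 3). E1-KO and E2-KO points lie above all WT points in all 10 panels, and the WT points are the most spread.

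The plot of levels by genotype shows tight KO libraries and scattered WT libraries. The median SD over the 10 genes on the log2 CPM scale was 0.057 in E1-KO, 0.073 in E2-KO, 0.052 in D-KO and 0.678 in WT, where that over all tested genes was 0.118, 0.129, 0.122 and 0.379 in the same order. The highest WT library exceeded the lowest by 1.42-fold for Asns and by up to 9.43-fold for Cebpb, whereas within a KO genotype no gene exceeded 1.27-fold. Cebpb has the highest GC content of the 10 (67.2% of its longest transcript), and Ddit3 and Asns the lowest (45.6% and 47.7%). WT replicate 2 exceeded replicate 3 by 9.43-fold for Cebpb, by 4.15-fold for Ddit4 (57.9% GC), by 2.09-fold for Ddit3 and by 1.24-fold for Sesn2 (58.7% GC), and was at 0.706 of it for Asns. For Atf3, Atf4 and Chac1 (52.2%, 55.5% and 57.4% GC) it was 2.635-fold, 2.81-fold and 2.29-fold. For Trib3 and Atf5 (58.2% and 61.7%) it was 1.88-fold and 2.71-fold, so the ratio did not follow GC content in every gene. The fits given below remove the GC and length trends found over all genes. The part of GC content in the WT spread of these 10 genes, and that of the mitochondrial share in the results against WT, were not tested.

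**Figure D2:**
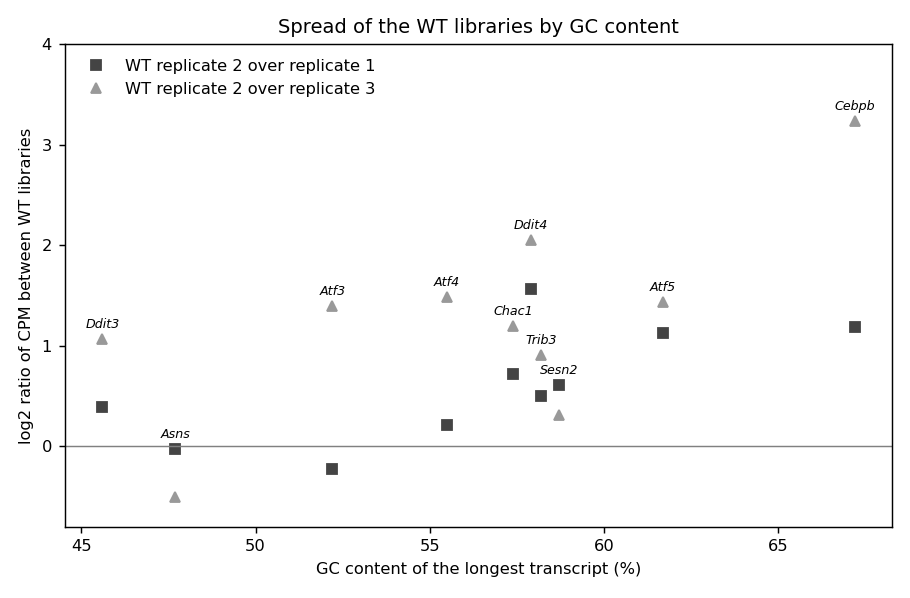
Log2 ratio of CPM of WT replicate 2 over WT replicate 1 (squares) and over WT replicate 3 (triangles) for each of the 10 genes, against the GC content of its longest transcript. Cebpb, at 67.2% GC, has the largest ratio over replicate 3 (9.43-fold), and Asns, at 47.7%, is below 0 on the log2 scale (a ratio of 0.706).

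Levels were compared between the genes per kilobase of exon. In each genotype the mean order began with Asns, Atf4 and Sesn2 and ended with Atf3. In E1-KO these stood at 226 ± 1.70, 166 ± 1.77, 66.5 ± 2.45 and 3.04 ± 0.128 CPM per kb (SD, n = 3), and in WT at 156 ± 32.2, 103 ± 47.2, 37.4 ± 7.86 and 1.11 ± 0.542. Neighbours in the order whose ranges overlapped were Ddit3, Cebpb and Chac1 in E1-KO, Ddit4, Atf5 and Trib3 as well as Chac1, Ddit3 and Cebpb in E2-KO, and Chac1 and Cebpb in D-KO. In WT only Atf4 and Sesn2 were adjacent without overlap.

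In E1-KO cells all 10 genes rose against WT, by 0.53 to 2.41 on the log2 scale, in edgeR's quasi-likelihood test with Benjamini-Hochberg adjustment over all 16765 genes, called at an adjusted p below 0.05. Of all genes tested, 15.7% rose and 34.2% were called either way. The median log2 fold change of the 10 genes was 1.12, beside -0.008 over all genes. Cebpb rose most, by 2.41 ± 0.41 (SE, adjusted p = 0.000862, edgeR), and Ddit4 and Atf3 followed with 1.70 ± 0.37 (0.0045) and 1.42 ± 0.28 (0.00155). Without WT replicate 2, Cebpb stood at 3.36 and Ddit4 at 2.59, and with it as the only WT library they stood at 1.54 and 0.82, and Atf5 at 0.56. Trib3 rose by 1.37 ± 0.17 with the smallest adjusted p of the set (4.03e-05). Atf5 rose by 1.25 ± 0.26, Chac1 by 1.00 ± 0.22, Sesn2 by 0.83 ± 0.13, Ddit3 by 0.81 ± 0.19 and Asns by 0.53 ± 0.12, with adjusted p of 0.000271 to 0.00521. Atf4 itself rose by 0.69 ± 0.25 with an adjusted p of 0.0495, and this call held in 8 of 21 alternatives, whose log2 fold changes ran from 0.26 to 0.97 with adjusted p of 2.38e-06 to 0.171. With WT replicate 2 as the only WT library, assumed to vary like the other genotypes, 10 again rose (15.6% of all genes did, and 30.8% were called) with a median of 0.65. With GC and length trends removed 9 rose and the median was 0.78, Atf4 being lost (adjusted p = 0.171, edgeR). There 2542 of all genes rose, against 2633 without this step. The main fit takes its spread from all 4 genotypes. Its SEs and p-values against WT, in E2-KO and D-KO too, thus rest partly on the tighter KO libraries. On the 6 libraries compared 7 rose, where 7.59% of all genes did. Atf4, Ddit3 and Asns lost their calls there (adjusted p = 0.17, 0.0561 and 0.0705, edgeR).

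In E2-KO cells all 10 genes rose as well, by 0.50 to 2.75, where 16.7% of all genes rose and 35.3% were called. The median was 1.43, against 0.004 over all genes. Cebpb rose by 2.75 ± 0.41 (adjusted p = 0.000367, edgeR), Ddit4 by 2.09 ± 0.37 (0.00142), Atf3 by 2.06 ± 0.28 (8.19e-05) and Trib3 by 1.74 ± 0.17 (6.63e-06). Chac1 rose by 1.61 ± 0.22, Atf5 by 1.25 ± 0.26, Ddit3 by 1.16 ± 0.19, Sesn2 by 0.92 ± 0.13, Atf4 by 0.87 ± 0.25 and Asns by 0.50 ± 0.12, with adjusted p of 0.000104 to 0.0176. Without WT replicate 2, Cebpb stood at 3.70 and Ddit4 at 2.97, and with it as the only WT library they stood at 1.87 and 1.19, and Atf5 at 0.55. With WT replicate 2 alone 10 rose (15.5% of all genes did, and 30.1% were called), with a median of 0.92. With GC and length trends removed 9 rose, with a median of 1.14, Atf4 being lost (adjusted p = 0.0672, edgeR). There 2545 of all genes rose, against 2808 without this step. On the 6 libraries compared 8 rose, where 7.44% of all genes did, and Atf4 and Asns lost their calls.

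In D-KO cells 2 of the 10 genes rose against WT and none fell, where 10.6% of all genes rose and 22.8% were called. The genes were Sesn2, by 0.52 ± 0.13 (adjusted p = 0.00998, edgeR), and Cebpb, by 1.34 ± 0.42 (0.036). The median of the 10 was 0.39, beside -0.02 over all genes. It was 0.30, 0.64 and 0.16 without WT replicates 1, 2 and 3, -0.08 with WT replicate 2 alone and 0.09 with GC and length trends removed. Atf3 and Ddit4 were at 0.67 ± 0.29 and 0.92 ± 0.37 without passing the test (adjusted p = 0.109 and 0.0958). Asns was at -0.25 ± 0.12 (0.168), and Atf4, Ddit3, Trib3, Chac1 and Atf5 at 0.06 to 0.47 (0.206 to 0.852). These values rest on which WT libraries are used. With WT replicate 2 alone 2 genes rose (17.7% of all genes did) and 4 fell (17.1% did, and 34.8% were called): Atf4, Ddit3, Chac1 and Atf5 stood at -0.24, -0.35, -0.40 and -0.23. Without WT replicate 2, 7 were called, 6 higher and 1 lower in D-KO, and the calls over all genes were 7006, against 3824 with all libraries. Cebpb then stood at 2.30, and at 0.47 with WT replicate 2 alone. With GC and length trends removed 2 rose, Cebpb at 1.08 (adjusted p = 0.00494, edgeR) and Ddit4 at 0.68 (0.0421), and Sesn2 lost its call at 0.19 (0.199). There 2209 of all genes rose, against 1777 without this step. On the 6 libraries compared none was, where 4.1% of all genes rose and 4.99% fell (9.09% together). The call of Cebpb held in 11 of 21 alternatives and that of Sesn2 in 19. The 3 comparisons share the WT libraries, so their agreement is not independent.

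**Figure D3:**
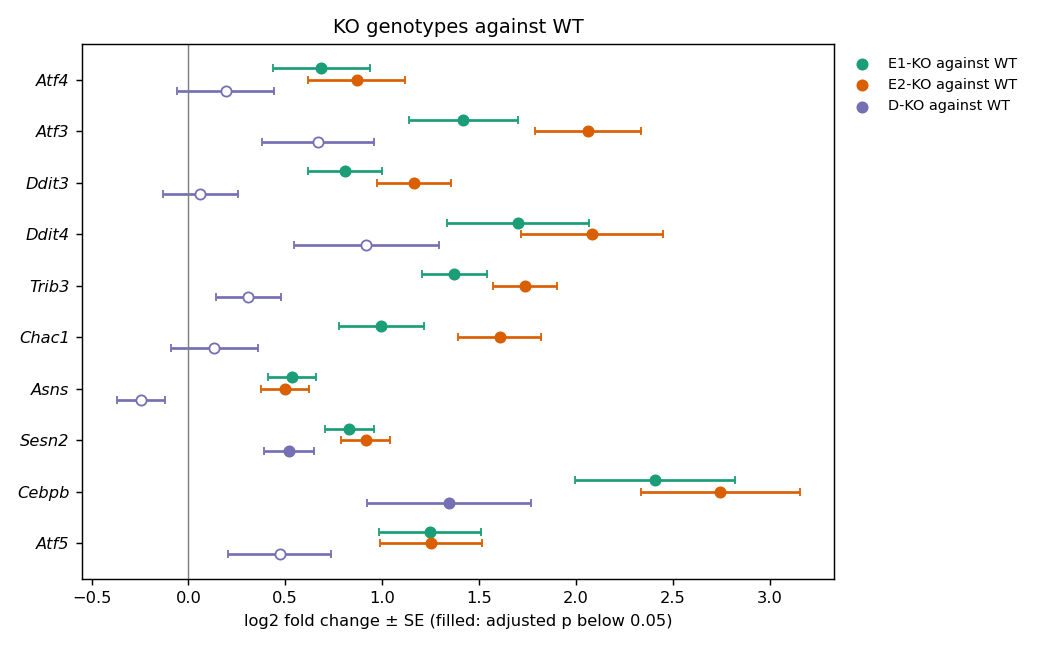
Log2 fold change ± SE of each gene in E1-KO, E2-KO and D-KO against WT (edgeR, 3 libraries per genotype); filled points passed an adjusted p below 0.05. All E1-KO and E2-KO points are filled, at 0.50 to 2.75, and in D-KO only Sesn2 and Cebpb are filled.

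Single WT libraries were also placed without a fit. Each of the 3 was below all E1-KO and all E2-KO libraries for 10 of 10 genes, where 21% and 21.3% of all genes had every E1-KO or every E2-KO library above WT. In D-KO all libraries were above WT for 3 genes (16.6% of all genes) and below it for 1 (16.2%). Against D-KO, WT replicate 1 was below all libraries for 7 genes, replicate 2 for 3 and replicate 3 for 9, and they were above all of them for 1, 5 and 1. The shares of all genes for single WT libraries were not computed, so these counts have no background beside them. The 16.6% and 16.2% refer to all 3 WT libraries together. Mean levels over that of WT replicate 2 were 1.19 (Atf4) to 2.89 (Cebpb) in E1-KO, 1.35 (Atf4) to 3.66 (Cebpb) in E2-KO, and 0.759 (Chac1) to 1.38 (Atf3 and Cebpb) in D-KO.

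In D-KO against E1-KO cells all 10 genes had every D-KO library below every E1-KO library, as did 27.1% of all genes. By the test 4 fell, where 7.52% of all genes fell, 8.43% rose and 15.9% were called: Trib3 by 1.06 ± 0.17 (adjusted p = 0.00106, edgeR), Asns by 0.78 ± 0.12 (0.00115), Chac1 by 0.86 ± 0.22 (0.0168) and Ddit3 by 0.75 ± 0.19 (0.0176). The other 6 ranged from -1.06 for Cebpb to -0.31 for Sesn2 with adjusted p of 0.0591 to 0.196. The median was -0.78, beside -0.014 over all genes. This fit takes its spread from all 4 genotypes, the scattered WT libraries included. Fitted on these 6 libraries alone, 10 of 10 fell, where 25.0% of all genes fell and 50.7% were called. With GC and length trends removed 7 fell, where 1568 of all genes fell, against 1260 without this step. Without E1-KO replicate 1 or 3, or without D-KO replicate 1 or 3, 2 fell, and the calls over all genes were 1174 to 1433, against 2674 with all libraries.

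In D-KO against E2-KO cells the 10 genes were again lower in every D-KO library, as were 23.0% of all genes. By the test 5 fell, where 2.64% of all genes fell, 1.84% rose and 4.48% were called. Chac1 fell by 1.47 ± 0.22 (adjusted p = 0.00205, edgeR), Trib3 by 1.43 ± 0.17 (0.000531), Atf3 by 1.39 ± 0.26 (0.00852), Ddit3 by 1.10 ± 0.19 (0.00574) and Asns by 0.75 ± 0.12 (0.00483). Cebpb was at -1.40 ± 0.38 (0.0599), Ddit4 at -1.17 ± 0.36 (0.0934), and Atf5, Atf4 and Sesn2 at -0.78, -0.68 and -0.40 (0.0966 to 0.144). The median was -1.13, beside -0.015 over all genes. On these 6 libraries alone 10 fell, where 18.3% of all genes fell and 37.3% were called. D-KO shares its libraries with the comparison to E1-KO.

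In E1-KO against E2-KO cells none of the 10 genes was called, where 0.596% of all genes were (0.322% rose and 0.274% fell). The lowest adjusted p of the 10 were those of Chac1 at -0.61 ± 0.21, Atf3 at -0.64 ± 0.25 and Trib3 at -0.37 ± 0.16 (adjusted p = 0.255, 0.3402 and 0.436, edgeR). DESeq2 called 0 of the 10 and 247 of all genes, and limma 6 of the 10 and 2954 of all genes, where edgeR called 100 of all genes. In 8 genes every E1-KO library was below every E2-KO library (19.0% of all genes), in Asns every one was above (15.7%), and Atf5 overlapped. Fitted on these 6 libraries alone 7 fell, where 10.6% of all genes fell and 21.4% were called.

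**Figure D4:**
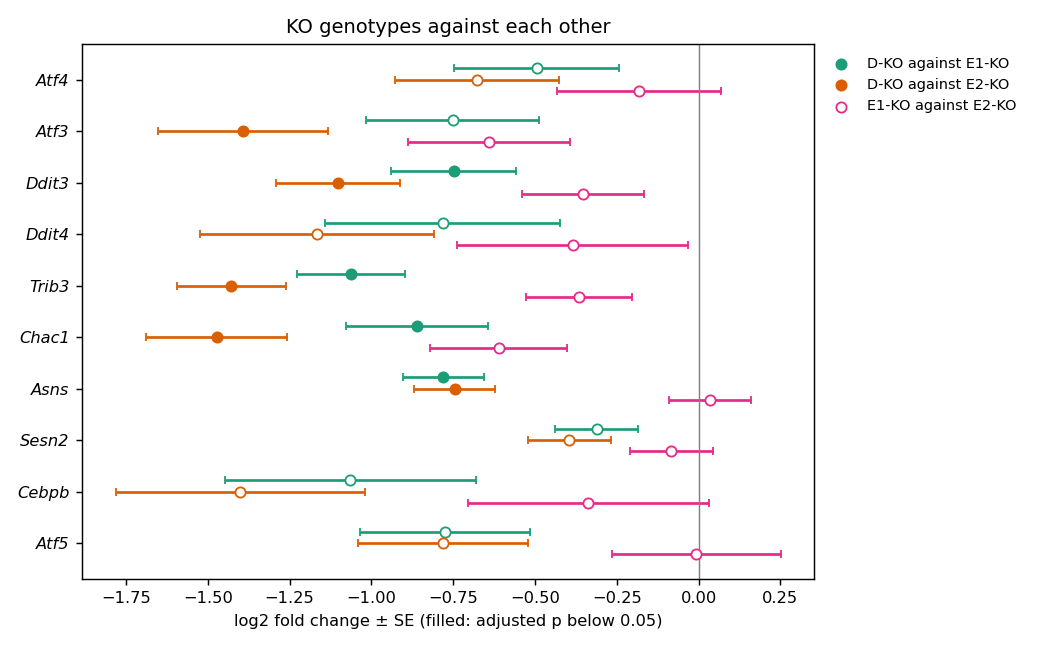
Log2 fold change ± SE of each gene between KO genotypes (edgeR, all 12 libraries in the fit); filled points passed an adjusted p below 0.05. All D-KO points lie below 0, with 4 filled against E1-KO and 5 against E2-KO, and no point of E1-KO against E2-KO is filled.

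The design also allows a test of whether the D-KO difference departs from the sum of the single-deletion differences on the log2 scale, as D-KO - E1-KO - E2-KO + WT. This interaction was below 0 for all 10 genes and passed the test for all 10, from -3.81 for Cebpb to -1.23 for Sesn2, where 17.1% of all genes passed below 0 and 35.2% passed either way. The median was -2.25, beside -0.009 over all genes, and -1.95 beside 0.032 with GC and length trends removed. Over the alternatives the interaction ran from -4.76 to -2.895 for Cebpb and from -1.396 to -0.455 for Sesn2. It passed for all 10 in each of 20 alternatives, and with WT replicate 2 alone the median was -1.73.

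The 4 genes with the element shown above, Atf3, Trib3, Chac1 and Asns, rose by 0.53 to 1.42 in E1-KO against WT, and the 6 without it in these windows by 0.69 to 2.41, so the ranges overlapped. In D-KO against E1-KO the 4 ranged from -1.06 to -0.75 and the 6 from -1.06 to -0.31, so these ranges overlapped as well.

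Some of the 10 genes overlap exons on the opposite strand, and no source used here gives the strand setting of the counting. Reads from such a gene and from its partner therefore cannot be told apart in the overlap. Cebpb shares 312 bases (20.7% of its exon length) with Tmem189, Atf5 shares 82 (4.11%) with Il4i1 and Nup62, and Ddit3 shares 68 (3.97%) with Mars. Tmem189 averaged 49.4 ± 1.17 CPM in E1-KO, 58.7 ± 1.92 in E2-KO, 45.9 ± 5.94 in D-KO and 25.1 ± 9.10 in WT (SD, n = 3). It rose against WT in all 3 KO genotypes, by 0.97, 1.22 and 0.86 in E1-KO, E2-KO and D-KO, with adjusted p of 0.000451 to 0.00661 (edgeR). Il4i1 averaged 9.04 ± 1.07, 9.01 ± 0.620, 3.22 ± 0.350 and 3.39 ± 2.24 CPM in E1-KO, E2-KO, D-KO and WT. It rose by 1.36 in both E1-KO and E2-KO against WT (adjusted p = 0.00544 and 0.00576, edgeR), was at -0.13 in D-KO (0.83), and fell by 1.48 in D-KO against E1-KO and against E2-KO. Nup62 averaged 202 ± 4.23, 198 ± 16.2, 161 ± 4.74 and 125 ± 25.5 CPM in E1-KO, E2-KO, D-KO and WT, and rose by 0.69 and 0.66 in E1-KO and E2-KO against WT (0.00123 and 0.00179). It was not called in the 3 comparisons of D-KO, and Mars was called in none of the 5 comparisons with WT or with D-KO.

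The other genes of the pathway were read from lists. Of all genes, 15.7%, 16.7% and 10.6% rose and 18.5%, 18.6% and 12.2% fell in E1-KO, E2-KO and D-KO against WT. In D-KO, 7.52% fell and 8.43% rose against E1-KO, and 2.64% fell and 1.84% rose against E2-KO. On the 6 libraries compared, 7.59%, 7.44% and 4.1% rose against WT. There 25.0% and 18.3% of all genes fell in D-KO against E1-KO and E2-KO. Of 21 tested further ATF4 target genes, 11 rose and 1 fell in E1-KO, 12 rose and 2 fell in E2-KO, and 8 rose and 5 fell in D-KO, each against WT, with medians of 0.36, 0.47 and 0.35. Gpt2, which makes alanine, averaged 156 ± 0.0865 CPM in E1-KO, 164 ± 1.52 in E2-KO, 92.2 ± 5.29 in D-KO and 56.1 ± 7.87 in WT, and rose in all 3, by 1.47, 1.55 and 0.72 (adjusted p = 5.07e-07, 5.77e-07 and 0.000348, edgeR). Gdf15, a secreted stress cytokine, rose by 2.97 ± 0.28 in E2-KO (5.94e-06), and Vegfa, the vessel growth factor, by 1.29 ± 0.14 in E1-KO (1.57e-05). Cth, which makes cysteine, fell in D-KO by 0.86 ± 0.12 (0.000143), with 94.98 ± 5.82 CPM in D-KO and 172 ± 26.5 in WT. With WT replicate 2 alone the medians of the list were 0.45, 0.44 and 0.005, and on the 6 libraries compared 7, 8 and 2 of its genes rose. Against E1-KO and E2-KO, 8 and 9 of these genes fell in D-KO and 1 and 0 rose, or 16 and 15 fell on the 6 libraries compared.

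The next list held amino acid transporters and enzymes of serine, glycine and proline synthesis. Of 16 tested, 11 rose and 1 fell in E1-KO, 12 rose in E2-KO and 2 rose in D-KO against WT, with medians of 0.47, 0.63 and -0.03. The shares of all genes that rose were 15.7%, 16.7% and 10.6%. Slc1a4, a carrier of neutral amino acids, averaged 66.7 ± 5.95 CPM in E1-KO, 83.2 ± 1.81 in E2-KO, 45.5 ± 4.77 in D-KO and 34.5 ± 2.11 in WT, and rose in all 3, by 0.95, 1.27 and 0.40. Slc6a9, the glycine carrier, rose by 1.47 ± 0.19 in E1-KO and 1.62 ± 0.19 in E2-KO (adjusted p = 6.2e-05 and 3.18e-05, edgeR), and Shmt2, a mitochondrial enzyme of glycine synthesis, by 0.46 ± 0.13 in D-KO (0.0187). Against E1-KO and E2-KO, 8 and 9 of the 16 fell in D-KO and none rose, where 7.52% and 2.64% of all genes fell. On the 6 libraries compared 15 and 15 fell, where 25.0% and 18.3% of all genes did. In E1-KO the 11 rises became 5 on the 6 libraries compared, where 7.59% of all genes rose. With GC and length trends removed they became 6, where 2542 of all genes rose. In D-KO against WT the median was -0.03 with WT replicate 2 alone too. With GC and length trends removed 1 rose and 3 fell, where 2209 of all genes rose and 2161 fell. On the 6 libraries compared none was called, where 9.09% of all genes were.

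Aminoacyl-tRNA synthetases, which load amino acids onto tRNA, had 3, 6 and 3 of 18 genes that rose in E1-KO, E2-KO and D-KO against WT and 1 that fell in each, with medians of 0.14, 0.26 and -0.03. The shares of all genes that rose were 15.7%, 16.7% and 10.6%, so the count in E1-KO was near that share. Sars rose in all 3, by 0.63, 0.88 and 0.41, and Wars by 0.45 and 0.54 in E1-KO and E2-KO, while Rars rose by 0.48 in D-KO. With WT replicate 2 alone the medians were 0.26, 0.33 and 0.16. On the 6 libraries compared 1, 2 and 0 rose, where 7.59%, 7.44% and 4.1% of all genes did.

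The next list was the upstream part of the pathway. Of 18 tested eIF2 kinases, phosphatase and eIF2 or eIF2B subunits, 3 rose and 8 fell in E1-KO, 3 rose and 8 fell in E2-KO, and 1 rose and 5 fell in D-KO against WT, with medians of -0.29, -0.27 and -0.17. Of all genes, 15.7%, 16.7% and 10.6% rose and 18.5%, 18.6% and 12.2% fell in the same comparisons. Dnajc3, an inhibitor of eIF2 kinases, fell in all 3, by 0.97, 0.89 and 0.73, with 33.7 ± 0.949 CPM in E1-KO, 35.8 ± 0.952 in E2-KO, 40.0 ± 0.929 in D-KO and 66.3 ± 14.2 in WT. Eif2b3, a subunit of the exchange factor for eIF2, fell by 0.62 in E1-KO, and Eif2ak2, the kinase PKR, by 0.81 in E2-KO. Impact, an inhibitor of the kinase GCN2, rose by 0.91 ± 0.11 in D-KO (adjusted p = 8.06e-05, edgeR). With WT replicate 2 alone the medians of the list were -0.03, -0.07 and 0.009. With GC and length trends removed 4, 3 and 3 rose and 5, 6 and 3 fell. There 2542, 2545 and 2209 of all genes rose and 2896, 2741 and 2161 fell. On the 6 libraries compared 1 rose in each and 2, 2 and 1 fell, where 1215, 1177 and 649 of all genes rose and 1337, 1358 and 789 fell.

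Of 18 ER chaperones and genes of the other unfolded protein response arms, none rose and 9 fell in E1-KO against WT. In E2-KO 1 rose and 7 fell, and in D-KO 1 rose and 2 fell, with medians of -0.31, -0.28 and -0.02 in the 3 comparisons. Of all genes, 15.7%, 16.7% and 10.6% rose and 18.5%, 18.6% and 12.2% fell, so the falls in D-KO were near that share. Edem1, which helps to clear misfolded glycoproteins, fell in all 3, by 0.93, 1.02 and 0.77, with 47.8 ± 1.54 CPM in E1-KO, 44.9 ± 1.36 in E2-KO, 53.2 ± 1.69 in D-KO and 90.9 ± 3.83 in WT. Manf, a secreted ER stress protein, fell by 0.73 in E1-KO and 0.50 in E2-KO. Xbp1, the factor of the IRE1 arm, rose by 0.58 in D-KO. Against E1-KO and E2-KO, 10 and 4 of the 18 rose in D-KO and none fell, where 8.43% and 1.84% of all genes rose. In E1-KO and E2-KO the 9 and 7 falls became 5 and 2 on the 6 libraries compared, where 1337 and 1358 of all genes fell. With WT replicate 2 alone the medians of the list were -0.25, -0.09 and 0.06 in E1-KO, E2-KO and D-KO.

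**Figure D5:**
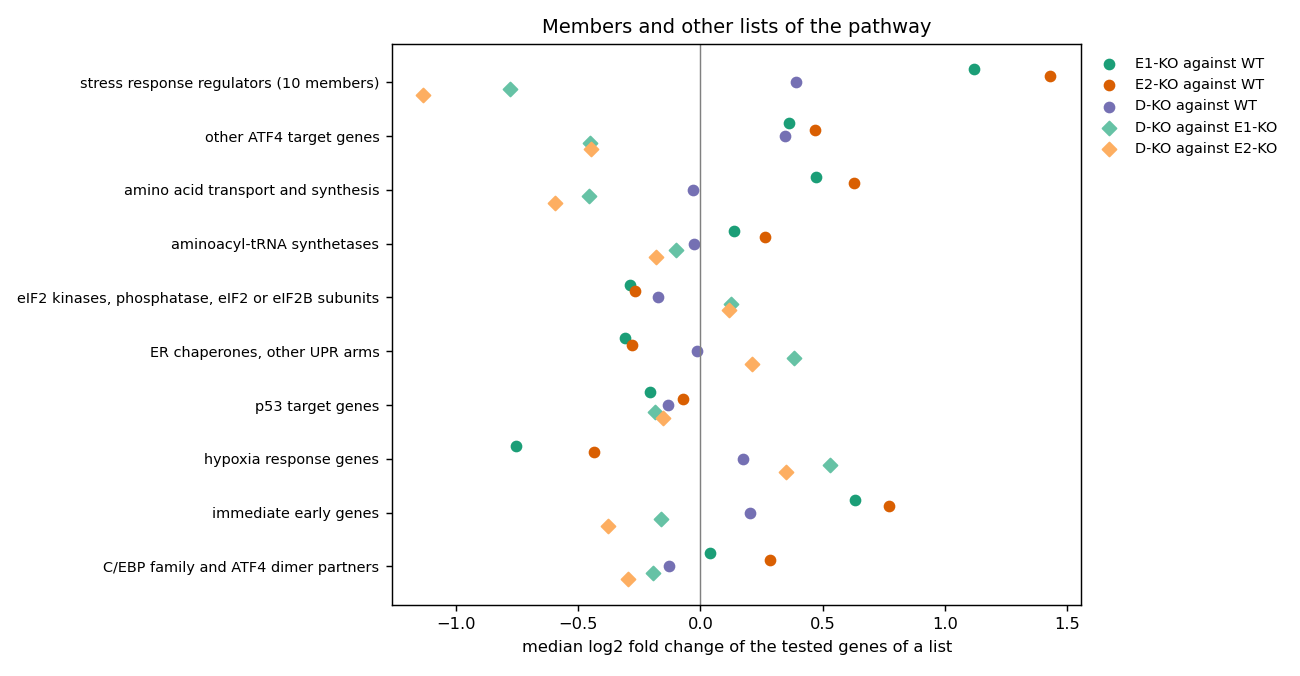
Median log2 fold change of the tested genes of each list (edgeR; circles for KO genotypes against WT, diamonds for D-KO against E1-KO and E2-KO). The 10 regulators have medians of 1.12 and 1.43 in E1-KO and E2-KO against WT, and ER chaperones have -0.31 and -0.28.

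Lists of other responses that share some of these genes were mixed, as the plot of list medians shows. Of all genes, 15.7%, 16.7% and 10.6% rose and 18.5%, 18.6% and 12.2% fell in E1-KO, E2-KO and D-KO against WT. Of 15 p53 target genes 3, 3 and 2 rose and 4, 4 and 5 fell in E1-KO, E2-KO and D-KO against WT, with medians of -0.21, -0.07 and -0.13. Gdf15 led the rises in E1-KO and E2-KO (2.40 and 2.97), Ei24 fell by 0.42 in E1-KO, Trp53inp1 by 0.69 and 0.79 in E2-KO and D-KO, and Plk2 by 0.73 in D-KO. Of 12 hypoxia response genes 2, 2 and 3 rose and 7, 7 and 2 fell, with medians of -0.76, -0.44 and 0.18. The mitophagy gene Bnip3 fell by 1.85 and 1.52 in E1-KO and E2-KO, with 20.5 ± 1.35 CPM in E1-KO, 25.8 ± 2.25 in E2-KO, 77.7 ± 2.31 in D-KO and 74.0 ± 10.4 in WT. Vegfa rose by 1.28 in E2-KO, and in D-KO Egln1 fell by 0.69 and Ndrg1 rose by 0.76. Of 10 immediate early genes 4, 6 and 2 rose and 2, 1 and 0 fell, with medians of 0.63, 0.77 and 0.20, which were 0.05, 0.23 and -0.06 with WT replicate 2 alone. Dusp1, a phosphatase of MAP kinases, rose by 1.12, 1.13 and 1.04 and Ier2 by 1.10, 1.24 and 0.83 in the 3 comparisons. Of 18 C/EBP genes and dimer partners 3, 5 and 0 rose and 5, 2 and 3 fell, with medians of 0.04, 0.28 and -0.13. Jdp2, a repressor that dimerises with ATF3 and JUN family proteins, rose by 1.81 and 1.82 in E1-KO and E2-KO and Atf2 fell by 0.56 and 0.70, while in D-KO Creb1 fell by 0.66 and Cebpa by 1.41. In D-KO against WT replicate 2 alone, the medians were 0.10 for hypoxia genes, -0.185 for p53 target genes and 0.005 for the C/EBP list. Several genes stand in more than 1 list, among them Gdf15, Vegfa, Ppp1r15a, Herpud1 and Jdp2.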

How the data were processed

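The 12 RNA-seq count tables were used; the 4C and ChIP samples were not analysed here. The authors deposited raw read counts per gene symbol. The submitters' processing notes name mm10, HISAT2 2.1.0, HTSeq 0.9.1 and DESeq2 1.18.1, without roles. No annotation or strand setting was given in the sources used here. HTSeq's summary lines, of which reads without a feature were 1.11 to 1.20 times the counted reads, stayed out of library sizes and tests.

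Genes were kept by filterByExpr on genotype and scaled by TMM. A quasi-likelihood model with robust estimation and a mean per genotype was fitted to all 12 libraries with edgeR 4.0.16 in R 4.3.3 (common dispersion 0.0265). Adjusted p-values are Benjamini-Hochberg over all tested genes of a comparison. Errors are SEs for log2 fold changes and SDs for CPM. Depths of 9101547 to 13007735 counts limit low genes such as Atf3. Positions, exon lengths and GC content came from GENCODE M21 (48108 of 52535 symbols matched), promoters from RefSeq.

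The 10 genes and all lists were chosen with earlier results of these data known. All 10 are named; of each list, the text names the 2 genes with the smallest adjusted p in each comparison with WT. Alternatives were DESeq2's size factors, library totals, no filter, a replicate block, GC and length trends removed (mgcv 1.9.3), DESeq2 1.42.0, limma 3.58.1 with quality weights, only the libraries compared, each library left out, and WT replicate 2 as the only WT library. Recounting the lists under 4 of these was added after the data were seen.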

Additional observations from a re-analysis of the deposited data

Results flagged for a closer look

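The test of the difference between effects, D-KO - E1-KO - E2-KO + WT on the log2 scale, picked out all 10 genes: with D-KO read as lacking both elements, the change that goes with losing E1 differed between cells that lack E2 and cells that have it. In edgeR the value was -1.36 ± 0.36 (SE) for Atf4 (adjusted p = 0.0103), -2.81 ± 0.38 for Atf3 (0.000109), -1.91 ± 0.27 for Ddit3 (0.000154) and -2.87 ± 0.51 for Ddit4 (0.00151). It was -2.80 ± 0.24 for Trib3 (2.32e-06), -2.47 ± 0.31 for Chac1 (5.68e-05) and -1.28 ± 0.18 for Asns (0.000126). For Sesn2 it was -1.23 ± 0.18 (0.000219), for Cebpb -3.81 ± 0.56 (0.000336) and for Atf5 -2.03 ± 0.37 (0.00127). All values carry the WT libraries, whose spread is the widest of the 4 genotypes, and 35.2% of all genes tested passed the same test. The sizes also moved with the processing: the median of the 10 was -2.25, and -1.95 with GC and length trends removed.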

How the results depend on the processing

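The counts of called genes in E1-KO and E2-KO against WT (10 each) and in the interaction (10) stayed within 7 to 10 under every alternative. The lowest were 7 and 8 on the 6 libraries compared. The other counts moved, and the calls over all genes stand beside them in brackets. In D-KO against WT, 2 called (3824) became 1 with library totals (3645), 4 without the filter (4386), 4 with limma (3247) and 0 on the 6 libraries compared (1438). The count ran from 1 to 7 when each replicate was left out. It was 7 without WT replicate 2 (7006). It was 1 without E1-KO replicate 1 (3347), E2-KO replicate 1 or 2 (3406 and 3347), or any D-KO replicate (2413 to 2484). In D-KO against E1-KO, 4 (2674) became 8 without the filter (3206), 7 with GC and length trends removed (3587), and 10 with limma (8006) and on the 6 libraries compared (8025). Leaving out a replicate gave 2 to 9. The count was 7, 9 and 9 without WT replicates 1, 2 and 3 (3594, 4934 and 4902), and 2 without E1-KO or D-KO replicate 1 or 3 (1174 to 1433). In D-KO against E2-KO, 5 (751) became 9 without the filter (1472), 8 with GC and length trends removed (1378), and 10 with limma (5877) and on the 6 libraries (5872). The count was 4 to 10 when a replicate was left out, with 9 and 10 without WT replicates 2 and 3 (2875 and 2468). In E1-KO against E2-KO, 0 (100) became 1 without the filter (415), 1 with GC and length trends removed (254), 6 with limma (2954) and 7 on the 6 libraries (3377). The count was 0 to 2 when a replicate was left out, with 1 and 2 without WT replicates 2 and 3 (558 and 722). The cause of these moves was not tested.

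Some values that had not passed the test changed sign. In D-KO against WT, GC and length trends removed gave Atf4 -0.019, Trib3 -0.02 and Chac1 -0.17. WT replicate 2 alone gave Atf4 -0.24, Ddit3 -0.35, Trib3 -0.10, Chac1 -0.40 and Atf5 -0.23. Leaving out single replicates gave Atf4 -0.15 to 0.47, Ddit3 -0.18 to 0.34 and Chac1 -0.11 to 0.53, each negative without WT replicate 3. Atf5 in E1-KO against E2-KO, at -0.007, was 0.0029 with DESeq2's size factors, 0.025 with library totals, 0.0047 with the replicate block, 0.077 with GC and length trends removed, 0.00049 in DESeq2, 0.011 on the 6 libraries, 0.0046 with WT replicate 2 alone and -0.10 to 0.055 when a replicate was left out. 

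Replicate numbers did not pair samples: the correlation of same-numbered deviations was -0.07 to 0.07 over 18 pairs. With the replicate block the calls were 10, 10 and 2 in E1-KO, E2-KO and D-KO against WT, 5 in D-KO against E1-KO, 5 in D-KO against E2-KO, 0 in E1-KO against E2-KO and 10 in the interaction. Counts over all genes moved by more than 1.5 times too: E1-KO against WT 5739 called, 2552 on the 6 libraries and 8753 without WT replicate 2; E2-KO against WT 5919, 2535 and 8887. They ran from 1438 to 7006 for D-KO against WT (3824), 1174 to 8030 for D-KO against E1-KO (2674), 227 to 6158 for D-KO against E2-KO (751) and 16 to 3457 for E1-KO against E2-KO (100). With library totals the share of rises among calls was 57.1% in E1-KO against WT (45.9% with TMM), 35.9% in D-KO against E1-KO (52.9%), 32% in D-KO against E2-KO (41.1%), 65.0% in E1-KO against E2-KO (54.0%) and 38.7% in the interaction (51.4%), and the median of all genes stood at -0.109 in D-KO against E1-KO and -0.179 in the interaction. Depth limits Atf3 and Cebpb most, with 9 reads each in WT replicate 3.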
